A study of Mus musculus with 27 samples.

Results

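The step from 0.5 to 1 h of interleukin-4 (IL-4) stimulation was examined in mouse bone marrow-derived macrophages (BMDMs), comparing the 3 samples taken at 1 h with the 3 taken at 0.5 h. A gene was described if 3 or more of these 6 samples held 10 or more normalised read counts, which were 11843 of the 45070 genes in the table and held 99.1% of the normalised read counts of the 6 samples. Of them, 9931 were protein-coding, 1725 were non-coding RNA genes and 187 were of other types. Only 36 passed solely through the 1 h samples and 44 solely through the 0.5 h samples.

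The study dealt with the effect of clinical kinase inhibitors on macrophages given IL-4 or lipopolysaccharide (LPS), a bacterial cell wall component, and these samples come from its time courses without inhibitor. BMDMs are primary macrophages grown from marrow, here of wild type male C57/BL6 mice of 6 to 8 weeks. Every sample, the untreated cells included, had 1 h of DMSO, the vehicle of the inhibitors, before stimulation. The 9 groups of 3 replicates were untreated cells and cells given IL-4 or LPS, each at 10 ng/ml, for 0.5, 1, 2 or 4 h, and nothing in the labels says whether replicates came from separate mice, so the tests measure only the spread between these samples.

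IL-4 binds a receptor made of IL-4Rα and a partner chain, and the attached Janus kinases (JAKs) phosphorylate the transcription factor STAT6, which then enters the nucleus and switches on its target genes. Among these are genes of the SOCS family, whose proteins act back on JAK signalling. In macrophages this route is known for the alternatively activated state, with its mannose receptor, PD-L2 and arginase. Chromatin-associated RNA is RNA still attached to chromatin. It is rich in unspliced transcripts still being made, so it follows gene transcription more closely than total RNA does, and reads fall along introns as well as exons.

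The cells carried the markers of their label. All 10 macrophage markers passed the limit on low values, and their summed level was 13164 to 14119 normalised read counts at 0.5 h and 11792 to 13418 at 1 h. The T cell genes Cd3e and Cd3g, the neutrophil gene Ly6g and the erythroid genes Hba-a1 and Hbb-bs were at 0 in all 6 samples. Other markers of such lists were present at low levels. The T cell gene Cd247 was at 10 to 25, the neutrophil genes Cxcr2 and Ngp at 10 to 15 and 3 to 9, and the dendritic cell gene Flt3 at 5 to 17. Fibroblast markers summed to 39 to 192 at 0.5 h and 29 to 136 at 1 h, and the highest sum of each time was in replicate 1, mostly from the collagen genes Col1a1 and Col1a2. Of the markers of other cell types only Cd247, Cxcr2, Flt3, Col1a1 and Col1a2 passed the limit on low values, and none of these was called. Of the macrophage markers Itgam fell (log2 fold change -0.68) and Spi1 rose (0.38).

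The replicates were unequal. Replicates 2 and 3 differed from each other with an SD of the log2 ratio of 0.198 at 0.5 h and 0.226 at 1 h, over the 6669 genes whose mean reached 50, while replicate 1 differed from either with an SD of 0.508 to 0.597. Same-numbered samples of both times deviated together, as did replicate 2 of one time with replicate 3 of the other. The reason was not tested. Totals lay between 2689703 and 2790981 normalised read counts in the 6 samples. The depth in reads is unknown, since the deposited values had been scaled and rounded.

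Between 0.5 and 1 h, 611 genes rose and 498 fell at an adjusted p of 0.05 (limma), which is 5.16% and 4.21% of the genes tested and 9.36% in both directions. The median log2 fold change was 0.61 among genes that rose, -0.72 among genes that fell and 0.03 over all members. A change of at least 1 on the log2 scale was reached by 96 genes that rose and 129 that fell. The number of calls depended strongly on how the replicates were treated. With the replicate number as a block 2257 genes (19.1%) passed, among them all 1109. With replicates 2 and 3 averaged into 1 sample only 124 (1.05%) passed, all of which were among the 1109 with the same direction. Leaving out replicate 2 gave 97 calls and leaving out replicate 3 gave 102, whereas leaving out replicate 1 gave 2289. Across the main fit and the 20 alternatives, 27 genes were called higher and 46 lower in every fit that tested them.

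**Figure D1:**
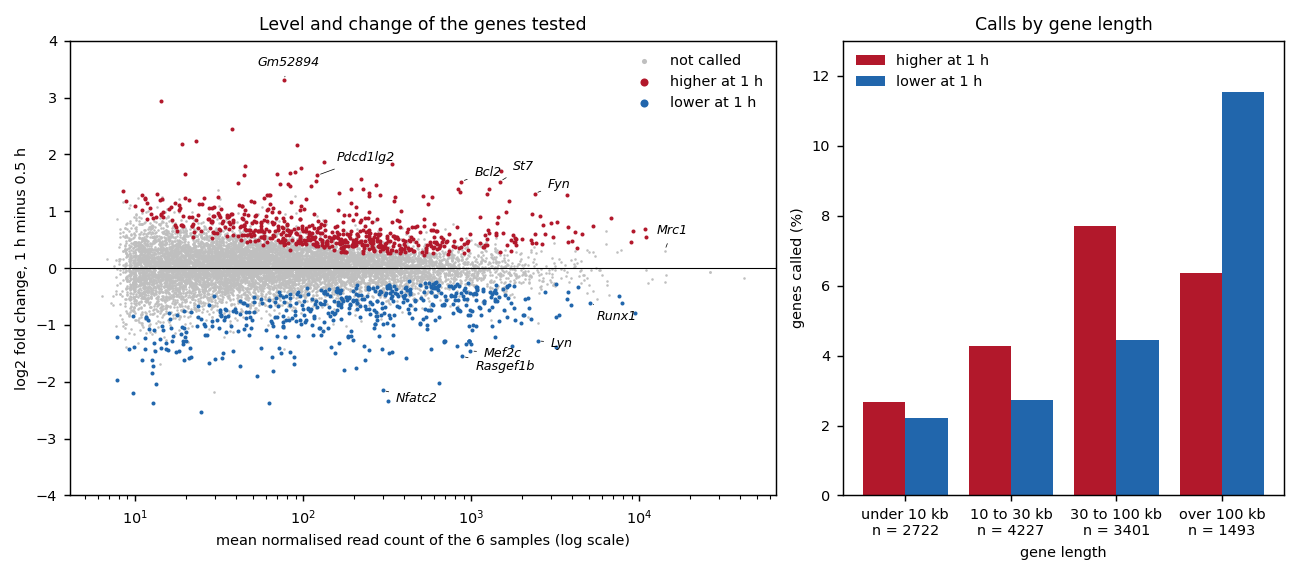
Left, the mean normalised read count of the 6 samples (log axis) against the log2 fold change at 1 h over 0.5 h, with 1 point per gene for the 11843 genes. Right, the percentage of genes called higher (red) or lower (blue) in 4 classes of gene length. Falls were called in 11.5% of genes over 100 kb and in 2.20% of those under 10 kb.

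The rankings of rises and falls admitted only genes whose values at 1 h and 0.5 h did not overlap, so this separation was set by the rule. Of all 11843 members 2950 did not overlap, and of the 1109 called genes 1102 did not. The 15 largest rises among protein-coding genes included cell surface proteins and signalling regulators. Pdcd1lg2 encodes PD-L2, a ligand that restrains T cells. Its normalised read counts were 44, 73 and 61 at 0.5 h and 162, 186 and 200 at 1 h (59.3 ± 14.6 against 182.7 ± 19.2, mean ± SD, n = 3). All 1 h samples lay above all 0.5 h samples, and the log2 fold change was 1.63 (SE 0.32, adjusted p = 0.00523). The untreated samples had held only 1, 0 and 2, and the level went on to 491 to 686 at 4 h, so the step was 1 stretch of a climb that lasted through the course.

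Cish, a SOCS family member that restrains cytokine receptor signalling, moved the same way at a lower level. It stood at 54, 32 and 48 at 0.5 h, reached 120, 132 and 112 by 1 h, and had a log2 change of 1.45 (SE 0.34, adjusted p = 0.0169). No 0.5 h sample reached any 1 h sample. Tmem26, a membrane protein gene, went from 34 to 42 up to 112 to 143, with a log2 fold change of 1.68 (SE 0.42). It lost its call in 8 of the 20 alternatives, among them a pseudocount of 0.5.

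Short stretches of the promoters of genes in this group are printed because STAT proteins bind palindromes of the form TTCNNNGAA, and STAT6 is known for a variant with a spacer of 4 bases between TTC and GAA. The stretches are RefSeq sequence of GRCm38.p6 from the 300 bases around each start (250 before, 50 after), read along the gene's strand, with the motif in capitals.
Tmem26, chr10:68723695-68723724, + strand, motif 41 bases before the start: ctttgaagagTTCTCTGGAAgttggagggg
Tmem26, chr10:68723509-68723538, + strand, motif 227 bases before the start: gtggagggcaTTCTTATGAActccctgggg
Pdcd1lg2, chr19:29410827-29410856, + strand, motif 82 bases before the start: catgctccagTTCCTCAGAAaccattctgg
Cish, chr9:107296654-107296683, + strand, a pair of motifs from the start base on: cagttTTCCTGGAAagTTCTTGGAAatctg
Rasgrp1, chr2:117342979-117343007, - strand, motif 120 bases before the start: gggggcaggaTTCGAAGAAgaactgaggg
Mef2c, chr13:83503867-83503895, + strand, motif 157 bases before the start: tccaagattaTTCTTGGAAatgtaatttt

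The first 5 belong to genes that rose and the last to a gene that fell, so the letters occurred in both. Each motif reads the same on both strands and was searched without mismatches. Promoters could be matched for 9318 members, 493 of those that rose and 380 of those that fell. The motif with a spacer of 4 was in the window of 8.11% of the genes that rose, 9.21% of those that fell, 6.98% of members and 8.01% of all 27025 genes with a promoter in the table. TTCNNNGAA was in 8.72%, 10.0%, 8.52% and 9.55% of the same sets, and the CRE palindrome TGACGTCA in 2.43%, 2.63%, 3.33% and 2.03%. Of the 15 largest rises among protein-coding genes 14 could be matched, and 3 of these held the motif with a spacer of 4, against 1 of 13 matched among the 15 largest falls. These shares are descriptions without a test.

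Flt1 encodes vascular endothelial growth factor receptor 1 and spans 164408 bases (chr5:147561604-147726011, - strand). Its values were 85, 159 and 94 at 0.5 h and 267, 420 and 298 at 1 h, a log2 change of 1.56 (SE 0.24, adjusted p = 0.00116). The lowest 1 h sample was above the highest 0.5 h sample. Ppargc1b, a coactivator of genes for mitochondrial oxidation, had 241, 112 and 107 at 0.5 h and 701, 448 and 428 at 1 h. Its log2 fold change of 1.84 (SE 0.29) was the largest among the protein-coding genes that met the limits for naming, which asked for a call, a mean of at least 50 and no overlap between the groups and which 929 genes of all types met.

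Rasgrp1, Tiam1 and Arap2 encode regulators of small GTPases, the molecular switches that act on adhesion, movement and growth. Rasgrp1, which activates Ras, went from 87 to 98 up to 218 to 251 (log2 fold change 1.33, SE 0.19), after 1 to 3 in untreated cells. Tiam1, which activates Rac, went from 484.7 ± 39.0 to 1228 ± 140 (1.34, SE 0.19). Arap2, which switches off Arf proteins, went from 464.0 ± 31.2 to 1211 ± 65 (1.38, SE 0.13, adjusted p = 1.64e-05). As the ranking required, none of these genes overlapped between the times. Rasgrp1 and Arap2 were called in every fit.

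Arap2 and Bcl2 were highest at 1 h and then receded. Bcl2, which protects cells from apoptosis, had 370, 506 and 475 at 0.5 h, 1231, 1338 and 1288 at 1 h and 374 to 731 at 2 h. At 4 h it was back at 197 to 433, against 180 to 244 in untreated cells. Slc22a5, a carnitine transporter, instead rose from 105.7 ± 4.0 to 279.3 ± 10.6 in the step and to 697 to 1010 at 2 h.

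The other genes in this ranking were Il1r1 (interleukin-1 receptor), Fmnl2 (an actin-organising formin), St8sia1 (a ganglioside sialyltransferase), St7 and Cobll1. Their log2 fold changes were between 1.47 and 1.80. St7 was among the tightest, with 702 to 860 at 0.5 h and 2062 to 2359 at 1 h, and it was called in every fit. St8sia1 and Il1r1 came from low levels, about 20 normalised read counts at 0.5 h (20.7 ± 7.1 and 20.3 ± 8.1). St8sia1 lost its call in 7 alternatives and Il1r1 in 8, a pseudocount of 0.5 included.

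**Figure D2:**
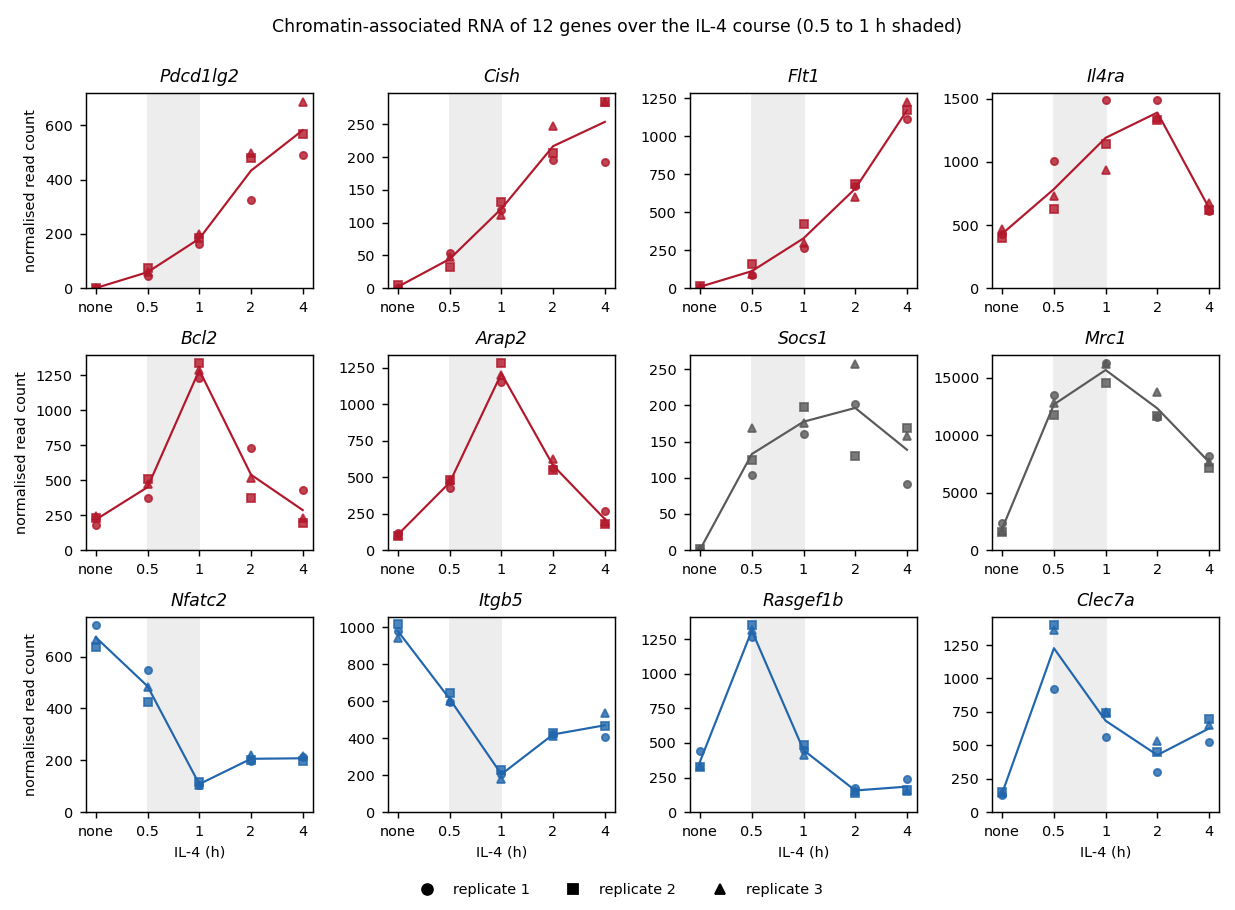
Normalised read counts (linear axis from 0) of 12 genes in untreated cells and after 0.5, 1, 2 and 4 h of IL-4, with 1 symbol per replicate and a line through the means. Red genes rose and blue genes fell in the shaded step, and grey genes were not called. Bcl2 and Arap2 were highest at 1 h, and Rasgef1b and Clec7a were highest at 0.5 h.

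Among the falls, Nfatc2, a calcium-regulated transcription factor, led the ranking. Its values were 548, 426 and 482 at 0.5 h and 105, 115 and 104 at 1 h, a log2 change of -2.15 (SE 0.10, adjusted p = 2.57e-08). The groups were far apart, and the gene was called in every fit. In untreated cells it had stood at 635 to 723, and at 4 h it was at 197 to 215.

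Other regulators fell from high levels. Mef2c, a transcription factor of muscle and immune cells, went from 1359, 1359 and 1634 to 520, 496 and 563 (-1.46, SE 0.10). Smad3, which carries transforming growth factor β signals, went from 447, 289 and 349 to 153, 116 and 123 (-1.45, SE 0.15). Both were separate in all samples and called in every fit.

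Itgb5, the integrin β5 chain, fell from 594, 645 and 600 to 205, 230 and 180 (-1.58, SE 0.10, adjusted p = 7.54e-07). It had already been lower at 0.5 h than in untreated cells (941 to 1017) and was at 413 to 427 again by 2 h, so 1 h was its lowest time. Slc16a10, a transporter of aromatic amino acids, fell from 494 ± 76 to 180 ± 49 (-1.48, SE 0.19).

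Some genes that fell had been at their highest at 0.5 h. Rasgef1b, an activator of Ras-like proteins, had 444, 323 and 333 in untreated cells, 1268, 1352 and 1315 at 0.5 h and 447, 484 and 413 at 1 h. The fall (-1.55, SE 0.15, adjusted p = 2.87e-05) thus brought it to 413 to 484, next to the untreated 323 to 444, and it went lower still at 2 h (141 to 172). Ccl4, a chemokine that draws monocytes and T cells, had 12 to 15 in untreated cells, 81, 40 and 46 at 0.5 h and 33, 16 and 12 at 1 h. Its groups did not overlap, but the call (-1.46, SE 0.43, adjusted p = 0.0458) was lost in 13 alternatives, scaling to equal totals and to medians of ratios included.

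The remaining falls of the ranking were Gpr141 and Adgre4, receptors of the G protein-coupled class, Ralgps2, which activates Ral, the Ugt1a2 and Ugt1a5 forms of the glucuronosyltransferase locus, Nol4l and 0610040J01Rik. Their log2 fold changes were between -1.81 and -1.48. Ugt1a2 and Ugt1a5 share exons with other forms of the locus, so their reads could not be assigned to 1 form with certainty. Adgre4 was lower in replicate 1 than in the others at both times (202 against 378 and 380 at 0.5 h, 65 against 98 and 113 at 1 h) and lost its call in 7 alternatives.

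**Figure D3:**
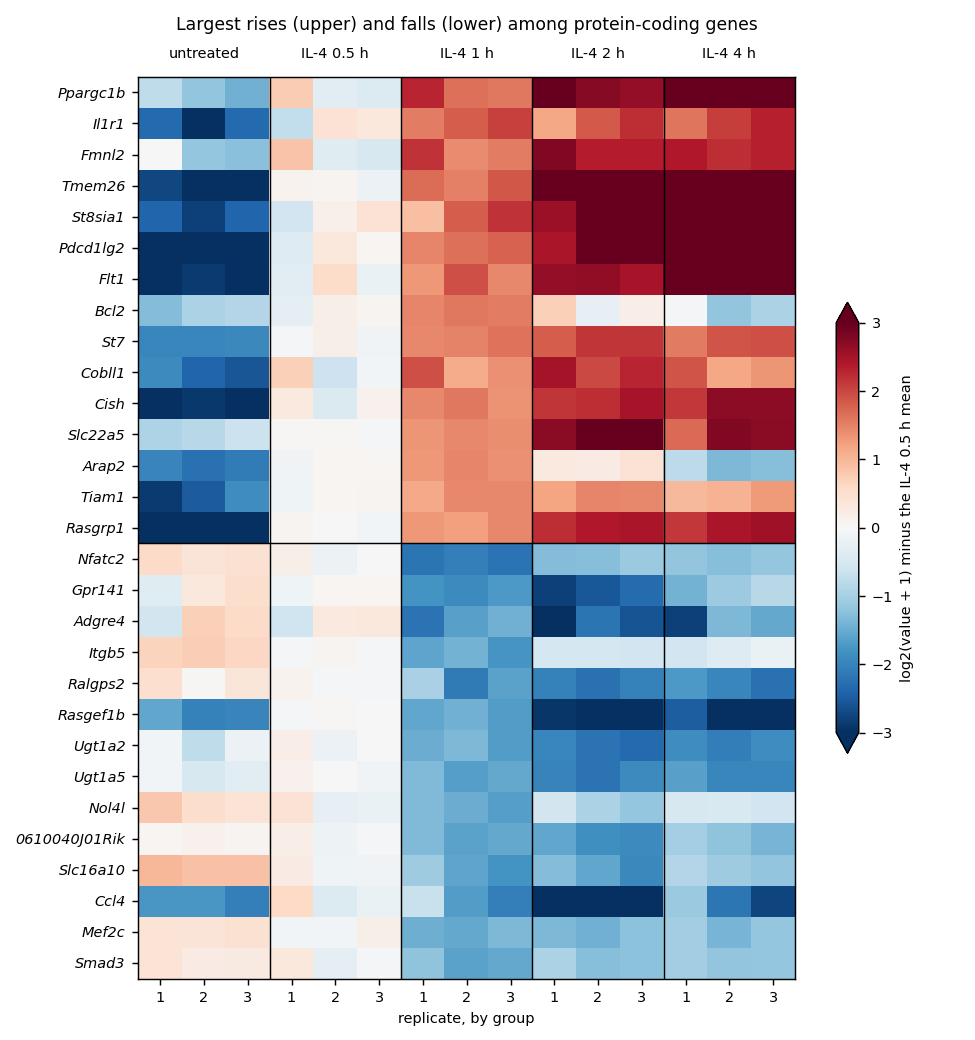
The 15 largest rises (upper block) and 14 of the 15 largest falls (lower block) among protein-coding genes in the 5 groups of the IL-4 course, with 1 column per replicate. Colour is log2(value + 1) minus the mean of the IL-4 0.5 h samples, from blue (lower) to red (higher). Most of these rises deepened at 2 and 4 h, while Bcl2 and Arap2 faded.

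The components of the IL-4 receptor pathway moved in both directions. Of the 25 genes tested, 5 rose (Il4ra, Jak2, Stat5b, Ptpn6 and Sos1) and 4 fell (Irs2, Pik3r1, Pik3cg and Inpp5d). Of all members 5.16% rose and 4.21% fell. Il4ra, the ligand-binding receptor chain, had 1004, 624 and 727 at 0.5 h and 1493, 1140 and 940 at 1 h. Here the highest 0.5 h sample exceeded the lowest 1 h sample, although each replicate rose, and the log2 fold change was 0.60 (SE 0.17, adjusted p = 0.0369). The call was lost in 10 of the 20 alternatives, among them the fits of the 6 samples and of all 27 and the averaged replicates (adjusted p = 0.263). Jak2, a kinase of cytokine receptors, went from 275, 404 and 398 to 506, 632 and 655 without overlap (0.75, SE 0.16). Irs2, the adaptor that links the receptor to phosphoinositide 3-kinase, fell from 214, 170 and 164 to 124, 141 and 101 (-0.58, SE 0.16), and Inpp5d, the phosphatase SHIP1 that opposes that kinase, fell from 2567 ± 258 to 1779 ± 114 (-0.53, SE 0.08). Irs2 lost its call in 11 alternatives, the fits of the 6 samples and of all 27 among them.

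The remaining chains, kinases and STAT6 itself were not called. The receptor chain gene Il13ra1 had 33, 23 and 19 at 0.5 h and 23, 14 and 10 by 1 h (-0.68, 95% interval -1.30 to -0.06, adjusted p = 0.172), and the block gave 0.0209. It was picked after its values had been seen. The log2 fold change was -0.05 for Stat6 (95% interval -0.31 to 0.21), -0.04 for Jak1 (-0.26 to 0.19), -0.09 for Jak3 (-0.49 to 0.31) and -0.09 for Il2rg (-0.80 to 0.61). These intervals leave room for changes of moderate size, most of all for Il2rg, which had only 17 to 42 normalised read counts. The median log2 fold change of the 25 genes was 0.06, near that of all members. The block gave 7 higher and 6 lower, against 19.1% of all members in either direction. The fit of the 6 samples alone gave none higher and 2 lower, and with replicates 2 and 3 averaged none of the 25 was called.

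Of 7 SOCS family genes tested (median log2 fold change 0.44), 4 rose and none fell, against 5.16% and 4.21% of all members. Besides Cish these were Socs2, from 16, 13 and 15 to 35, 32 and 32 (1.12, SE 0.22), Socs7, from 35, 21 and 33 to 82, 63 and 58 (1.18, SE 0.21), and Socs5, from 342.7 ± 31.4 to 456.3 ± 16.5 (0.42, SE 0.09). Their groups did not overlap, but none of the 4 was called with replicates 2 and 3 averaged. The members had different histories. Socs2 was at 1 in every untreated sample, whereas Socs7 had been at 48 to 57 in untreated cells and lower at 0.5 h, so that it rose in the step from a low point. Socs1, the main inhibitor of JAKs, had 104, 125 and 169 at 0.5 h and 160, 197 and 175 at 1 h after at most 2 in untreated cells, and its step of 0.44 (95% interval -0.33 to 1.21) was not called.

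Among 30 tested genes of a list of IL-4-responsive genes, 9 rose and none fell, against 5.16% and 4.21% of all members. They were Pdcd1lg2, Tmem26, Rasgrp1, Flt1, Slc7a2, Socs2, Cish, Il4ra and Ppargc1b, and the list's median log2 fold change was 0.38. Slc7a2, a transporter of arginine, had a log2 fold change of 1.18 (SE 0.14). At 4 h against untreated, 27 of the 30 were higher and none lower, against 14.8% and 14.0% of all members. The list was written from general knowledge of IL-4 responses, with earlier results of these data known, so these counts are not independent support. The block called 11 higher and 1 lower, against 19.1% of all members in either direction. With replicates 2 and 3 averaged 4 of the 9 were called, against 1.05% of all members.

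Several well known genes of alternative activation did not pass in this step. Mrc1, the mannose receptor, had 13492, 11707 and 12783 at 0.5 h and 16253, 14498 and 16212 at 1 h, after 1541 to 2386 in untreated cells. These groups did not overlap, the log2 fold change was 0.31 (0.01 to 0.60) with an adjusted p of 0.195, and the replicate block gave 0.0284 against 0.539 with replicates 2 and 3 averaged. Batf3, a partner of AP-1 factors, went from 41, 19 and 23 to 71, 42 and 48 (0.97, adjusted p = 0.0737), and the replicate block called it (0.00109) but the averaged replicates did not (0.377). For Irf4, a transcription factor of alternative activation, the change was 0.50 (-0.06 to 1.06), and it went on from 85 to 113 at 1 h to 361 to 426 at 4 h.

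Pparg, a lipid-sensing nuclear receptor, had 1984, 1698 and 1423 at 0.5 h and 1977, 1645 and 1563 at 1 h. Replicate by replicate these values were close, and the log2 fold change was 0.03 (-0.40 to 0.46). Klf4, a zinc finger factor, at 0.11 (-0.72 to 0.95), and Arg1, arginase 1, at 0.32 (-0.58 to 1.22), had wider intervals at their low levels of 9 to 35. Arg1 had 13, 33 and 29 at 0.5 h and 24, 35 and 30 at 1 h, so its replicates moved unequally. Egr2 and Myc, both raised by 0.5 h, had lower means at 1 h but were not called (-0.58, -1.41 to 0.25, and -0.38, -0.96 to 0.21).

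Of the 29 genes fixed for the report, 8 were under the limit on low values and were not tested, among them Retnla, which had 0, 0 and 1 at 0.5 h, then 1, 6 and 1, and by 4 h 74, 140 and 129. Chil3 was at 0 in all 15 samples of the course. Fos was at 4 to 10 at 0.5 h and 2 to 5 at 1 h, Egr1 at 4 to 12 and 1 to 6, and Tnf at 0 to 7 and 1 to 4.

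Immediate early genes respond to signals without new protein synthesis. Of 13 tested, 3 fell and 1 rose, against 4.21% and 5.16% of all members. The median of the 13 was -0.44, and 17 others were too low to test. Jun, a subunit of AP-1, fell from 89, 75 and 77 to 58, 33 and 27 (-1.08, SE 0.31), and Klf6 fell from 215, 233 and 263 to 150, 139 and 121 (-0.79, SE 0.12). Klf10, a factor induced by transforming growth factor β, rose from 7, 9 and 4 to 16, 17 and 16 (1.23, SE 0.28), and the untreated samples had been at 22 to 25. The call for Jun was lost under equal totals and under medians of ratios. The block called 1 of the list higher and 5 lower, against 19.1% of all members in either direction. With replicates 2 and 3 averaged none was called (adjusted p = 0.074 for Klf6 and 0.109 for Klf10).

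Among 10 tested genes of phosphatases that switch off MAP kinases and of feedback on ERK, 3 fell (Dusp1, Dusp6 and Dusp16) and none rose. Of all members 4.21% fell and 5.16% rose, and 2705 of the 11843 had an unadjusted p under 0.05 in either direction. Dusp1 went from 10, 22 and 28 to 6, 5 and 5 (-1.62, SE 0.41), Dusp6 from 27, 40 and 45 to 10, 19 and 20 (-1.17, SE 0.33) and Dusp16 from 239.7 ± 49.1 to 158.0 ± 16.5 (-0.58, SE 0.14). The samples did not overlap for any of the 3, and at an unadjusted p under 0.05 none of the group was higher. The block called 5 lower, against 19.1% of all members in either direction, and with replicates 2 and 3 averaged none was called. Dusp1 and Dusp16 each lost the call in 8 alternatives and Dusp6 in 11.

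Of 17 NF-κB targets tested, 1 was higher at an unadjusted p under 0.05, which 2705 of the 11843 members reached in either direction. After adjustment, against 5.16% and 4.21% of all members, none rose and 4 fell. These were Nfkbiz, a nuclear IκB protein (109, 95 and 100 to 62, 40 and 47), Rel, an NF-κB subunit (1713, 1508 and 1481 to 1214, 1229 and 1134), and the chemokines Ccl3 and Ccl4. Rel had been at 402 to 508 in untreated cells, so it remained above that level at 1 h. Rel lost its call in 11 alternatives, the fit of the 6 samples alone included. The block called 1 gene of the list higher and 6 lower, against 19.1% of all members in either direction. With replicates 2 and 3 averaged none was called. Nfkbia, the inhibitor IκBα, had a change of -0.29 (-0.85 to 0.27).

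All 13 chemokine and chemokine receptor genes tested had a negative log2 fold change (-1.59 to -0.08), against 46.6% of all members. Of the 13, 4 were called lower, against 4.21% of all members. Ccl3, a chemokine related to Ccl4, went from 57, 48 and 31 to 19, 10 and 14 (-1.59, SE 0.34). The receptor gene Cx3cr1 went from 34, 48 and 68 to 17, 36 and 20 (-1.03, SE 0.30). The Cx3cr1 samples overlapped, and its call was lost in 11 alternatives. None of the group was higher at an unadjusted p under 0.05. The block called 6 lower, against 19.1% of all members in either direction. With replicates 2 and 3 averaged none was called.

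C-type lectin receptors, which bind sugars on microbes, showed 4 falls and no rise among 12 tested (median -0.60), against 4.21% and 5.16% of members. Clec7a, the β-glucan receptor dectin-1, had 127 to 153 in untreated cells, 918, 1399 and 1361 at 0.5 h and 561, 739 and 750 at 1 h. It thus fell (-0.83, SE 0.21) while staying above its untreated level, and it was lower in replicate 1 at both times. Clec4d, a receptor for mycobacterial lipid, fell from 271, 262 and 308 to 141, 112 and 100 (-1.26, SE 0.20), Clec4a2 from 264.3 ± 44.5 to 122.0 ± 18.0 (-1.11, SE 0.20) and Clec12a from 149 ± 23 to 82 ± 24 (-0.88, SE 0.24). The block called 1 gene of the list higher and 5 lower, against 19.1% of all members in either direction. At an unadjusted p under 0.05 the numbers were 1 and 6. With replicates 2 and 3 averaged all 4 calls were lost, and Clec7a and Clec12a each lost theirs in 9 alternatives.

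Transcription factors of the macrophage lineage included 3 falls and 1 rise among 16 tested, against 4.21% and 5.16% of all members. Runx1 fell from 6062, 6076 and 6299 to 4229, 3834 and 4044 (-0.61, SE 0.07, adjusted p = 0.000148). Fli1, an ETS family factor, fell from 2082, 1782 and 1875 to 1113, 962 and 940 (-0.93, SE 0.13), and the third was Klf6. Spi1, which encodes the master regulator PU.1, rose from 305, 291 and 287 to 417, 410 and 331 (0.38, SE 0.10), again from a 0.5 h point below the untreated 448 to 503. Spi1 lost its call in 10 alternatives, among them the fits of the 6 samples and of all 27. The block called 3 of the list higher and 4 lower, against 19.1% of all members in either direction. With replicates 2 and 3 averaged none was higher and 1 was lower, against 1.05% of all members.

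Other groups held few or no calls, against 5.16% of all members higher and 4.21% lower. With the block 19.1% of all members were called in either direction. Of 23 interferon-responsive genes none was called, with 1 higher and 1 lower at an unadjusted p under 0.05, and of 5 MHC class II genes none was called or reached that p, although the replicate block called 1 lower. The enzymes of cholesterol synthesis had a median of 0.46, and 2 of 18 rose, Fdps from 6, 10 and 9 to 17, 26 and 19 (1.22, SE 0.24) and Hmgcs1 from 24.7 ± 4.2 to 39.7 ± 3.5 (0.67, SE 0.18). Untreated cells had held 11, 16 and 17 for Fdps and 37, 37 and 41 for Hmgcs1. In limma at 1 h against untreated cells neither was called (adjusted p = 0.194 and 0.893). The block called 5 of the list higher in the step. Fdps and Hmgcs1 lost their step calls in the fits of the 6 samples, of all 27 samples and with replicates 2 and 3 averaged. None of the cholesterol synthesis genes was called lower in any of these fits.

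Because the study concerned kinase inhibitors, tyrosine kinases were listed as a group. Of 34 tested, 4 rose (Flt1, Fyn, Jak2 and Tnk2) and 3 fell, Lyn and Ptk2b among them, against 5.16% and 4.21% of all members. The block called 8 and 8, against 19.1% of all members in either direction. With replicates 2 and 3 averaged 2 were higher and 1 lower, against 1.05% of all members. Within the Src family, Fyn went from 1229, 1409 and 1467 to 3537, 3244 and 3391 (1.31, SE 0.12, adjusted p = 1.64e-05). Lyn went the other way, from 3109, 3608 and 3814 to 1677, 1402 and 1270 (-1.28, SE 0.14, adjusted p = 8.76e-05). Fyn and Lyn showed no overlap and were called in every fit.

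Of the 1912 members that were not protein-coding, 76 rose (3.97%) and 104 fell (5.44%), near the 5.16% and 4.21% of all members. The 5 largest rises were Gm52894, Gm37053, Gm51749, Gm50587 and Gm51740, with log2 fold changes of 1.75 to 3.30, which lie inside St7, Bcl2, Rgl1, Fchsd2 and Rps6kc1. The 5 largest falls were Gm30240, Gm52043, Gm46045, Gm32702 and F630028O10Rik, with -2.37 to -1.80, of which the first 4 lie inside F13a1, Mef2c, Rnf150 and Iqgap2. F630028O10Rik overlaps the gene of the microRNA miR-223 and fell from 151, 302 and 369 to 59, 70 and 94. Gm30240 lost its call in 8 alternatives, Gm51749 in 6 and F630028O10Rik in 3. The sources used here do not say if reads were counted by strand. Reads of these genes and of their hosts thus cannot be told apart, and values of inner genes below may hold host reads.

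Host and inner gene did not always move by the same amount, though the difference between them was not tested. Rgl1 itself had a log2 fold change of 0.04 (SE 0.49) while Gm51749, 217 kb from its start, had 2.17 (SE 0.50). Rps6kc1 rose by 1.19 (SE 0.13) and Gm51740, 83.5 kb in, by 1.75 (SE 0.16). Iqgap2 fell by 0.69 (SE 0.13) and Gm32702, 114 kb in, by 1.90 (SE 0.24).

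St7 spans chr6:17693994-17943023 (+ strand). Inside it, Gm52895 lies 62.6 kb from the start of this span and Gm52894 126 kb from it, both on the opposite strand. The St7 promoter matched here lay further in, around chr6:17749158-17749187, so both genes are nearer to that start. Which start these cells used was not tested. Gm52895 had 12, 10 and 10 in untreated cells, 48, 77 and 60 at 0.5 h and 164, 183 and 187 at 1 h. Gm52894 had 9, 5 and 15, then 14, 15 and 11, and then 122, 151 and 147, so that the nearer gene was above its untreated samples at 0.5 h and the farther was not separate from them until 1 h. St7 itself had 194 to 200, 702 to 860 and 2062 to 2359 at the same times.

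Bcl2 and Flt1 held such genes too. Gm37053, 99.3 kb into Bcl2 on the same strand, had 14, 19 and 15 in untreated cells, 11, 10 and 11 at 0.5 h and 46, 72 and 75 at 1 h. At 0.5 h its samples were all below the untreated ones, while those of Bcl2 were all above. In limma against untreated cells Gm37053 was not called (adjusted p = 0.181), while Bcl2 was (0.0129). Gm35383, 57.6 kb into Flt1 on the opposite strand, had 0, 2 and 0, then 3, 1 and 4, and then 19, 36 and 23.

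Mef2c fell and held a pair of them. The host was at 1880 to 1980 in untreated cells and 1359 to 1634 at 0.5 h. Gm52043, 88.9 kb in, had 464, 457 and 417 in untreated cells, 527, 495 and 589 at 0.5 h and 97, 102 and 116 at 1 h. Gm52044, 132 kb in, had 310, 285 and 299, then 328, 321 and 339, and then 126, 108 and 152, and fell further to 82 to 95 at 2 h. At 0.5 h the host was below its untreated samples and both inner genes were above theirs. In limma against untreated cells the host was called (adjusted p = 0.00829), but Gm52043 (0.113) and Gm52044 (0.542) were not. Gm52895, Gm35383 and Gm52044 were picked after their values had been seen, and these are descriptions of 4 hosts without a test over genes.

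Among the other genes of the ranking, Fmnl2, Ralgps2, Nol4l and Smad3 held an inner gene too. Gm52511, 146 kb into Fmnl2, had 6, 6 and 4 at 0.5 h and 11, 10 and 10 by 1 h, after 9, 2 and 1 in untreated cells. Angptl1, 78.5 kb into Ralgps2, had 50, 33 and 38 in untreated cells, 40, 44 and 43 at 0.5 h and 9, 5 and 6 by 1 h. 4930404H24Rik, 24.7 kb into Nol4l, had 39, 35 and 30 in untreated cells, 18, 14 and 10 at 0.5 h and 13, 8 and 7 by 1 h, so it was already below its untreated samples at 0.5 h and its values at both IL-4 times overlapped. In Smad3, Gm51710 lies 19.6 kb from the start and had 31, 28 and 33 in untreated cells, then 30, 14 and 24, and then 10, 5 and 8.

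**Figure D4:**
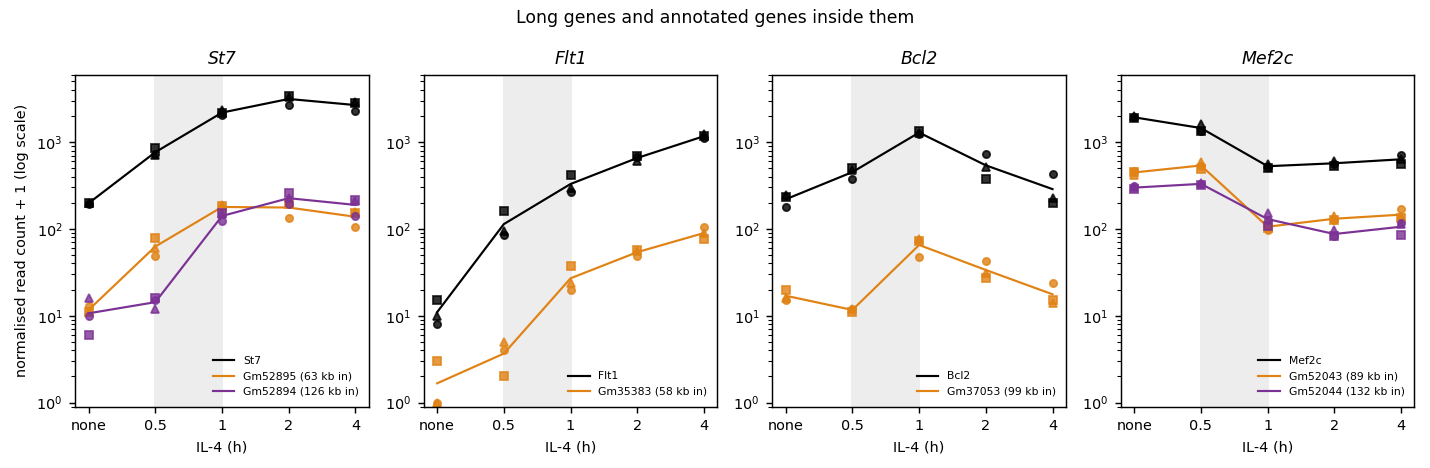
Normalised read count + 1 (log axis) of 4 long genes (black) and of annotated genes inside them (orange and purple). Labels give the distance in kb from the start of the host's annotated span. Values of inner genes may hold reads of the host. Untreated cells and each time of IL-4 are shown, with 1 symbol per replicate and lines through the means. At 0.5 h St7, Flt1 and Bcl2 were above untreated, while Gm52894 and Gm37053 were at 10 to 15 and rose by 1 h.

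Calls differed in number between classes of gene length. The median length was 23421 bases over all members, 38135 among genes that rose and 54475.5 among those that fell. Under 10 kb, 2.68% of 2722 genes rose and 2.20% fell. Over 100 kb, 6.36% of 1493 genes rose and 11.5% fell, and the median log2 fold change of that class was -0.13, against 0.03, 0.07 and 0.04 in the classes under 10 kb, of 10 to 30 kb and of 30 to 100 kb. Level rose with length too, from a median of 23 normalised read counts in the shortest class to 357 in the longest, so the classes were also set side by side among members with a mean of at least 100. There 3.90% rose and 7.32% fell of 205 genes under 10 kb, and 8.05% rose and 13.8% fell of 1093 over 100 kb. The median log2 fold changes of both were alike at that level, -0.089 and -0.094. Of the genes of 10 to 30 kb 6.02% rose and 4.92% fell (median 0.037), and of those of 30 to 100 kb 9.79% and 5.76% (0.062). Among protein-coding genes alone, 2.03% rose and 3.38% fell of 148 under 10 kb. Over 100 kb 8.12% rose and 13.6% fell of 1072. In the LPS step the longest class showed more falls as well (48.5%, against 20.2% of the shortest).

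Placed in the whole IL-4 course, the genes that rose had their highest mean at 2 h in 258 cases, at 1 h in 186, at 4 h in 99 and in untreated cells in 68. Their lowest mean was at 0.5 h in 334 cases (54.7%), in untreated cells in 240 (39.3%), at 4 h in 31 and at 2 h in 6. Those that fell had their highest mean in untreated cells in 251 cases and at 0.5 h in 212. These counts share samples with the step and only describe where it lies. The comparison of 4 h with untreated cells shares no sample with the step, and in it 1757 members (14.8%) were higher and 1656 (14.0%) lower. Both comparisons came from the same fit, however, and used the same variance for each gene (SE 0.116 in both for St7). A gene with a small spread was thus easier to call in both, so the overlaps that follow are not independent of the step. Of the 611 genes that rose in the step, 258 (42.2%) were higher at 4 h, which is 14.7% of the genes higher then, and 32 were lower. Of the 498 that fell, 335 (67.3%) were lower at 4 h, which is 20.2% of the genes lower then, and 32 were higher.

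More genes were called over the same interval under LPS. In the LPS step, fitted on all 27 samples, 3422 members (28.9%) were higher and 3443 (29.1%) lower. The IL-4 step gave 653 calls in a fit of all 27, while its 611 and 498 come from the fit of 15 samples. The difference between both steps was called in 4637 genes (39.2%). Of the 611 genes that rose with IL-4, 328 (53.7%) also rose with LPS and 125 (20.5%) fell, and the 328 were 9.59% of the LPS rises. Of the 498 that fell with IL-4, 344 (69.1%) also fell with LPS and 56 (11.2%) rose, and the 344 were 9.99% of the LPS falls. Of the 23 interferon-responsive genes, 21 were higher in the LPS step and 1 was lower.

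For single genes the difference was tested directly. Pdcd1lg2 rose with IL-4 and stood at 1 to 4 and 0 to 2 at both LPS times, a difference of 2.40 (SE 0.60, adjusted p = 0.0027). Bcl2 and Tiam1 had LPS steps of 0.10 and 0.15, and differed by 1.42 and 1.18. Mrc1 fell from 1959 to 2511 down to 396 to 606 with LPS, and differed by 2.60 (adjusted p = 1.1e-08). Cish and Il1r1 rose more with LPS than with IL-4, by differences of -2.07 and -2.46, as did Il4ra (-1.08).

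Among the falls, Nfatc2 fell by 2.15 with IL-4 and by 0.86 with LPS, on the log2 scale, a difference of -1.29 (adjusted p = 2.13e-05). Smad3 and Nol4l, with LPS steps of 0.25 and 0.10, differed by -1.70 and -1.59. Lyn fell with IL-4 while its LPS step was 0.10 (SE 0.15), a difference of -1.38 (adjusted p = 2.13e-05), and Fyn, which rose with IL-4, had an LPS step of 0.05 and differed by 1.26. Mef2c fell in both, with log2 fold changes of -1.46 and -1.79, and its difference of 0.34 was not called (adjusted p = 0.456).

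**Figure D5:**
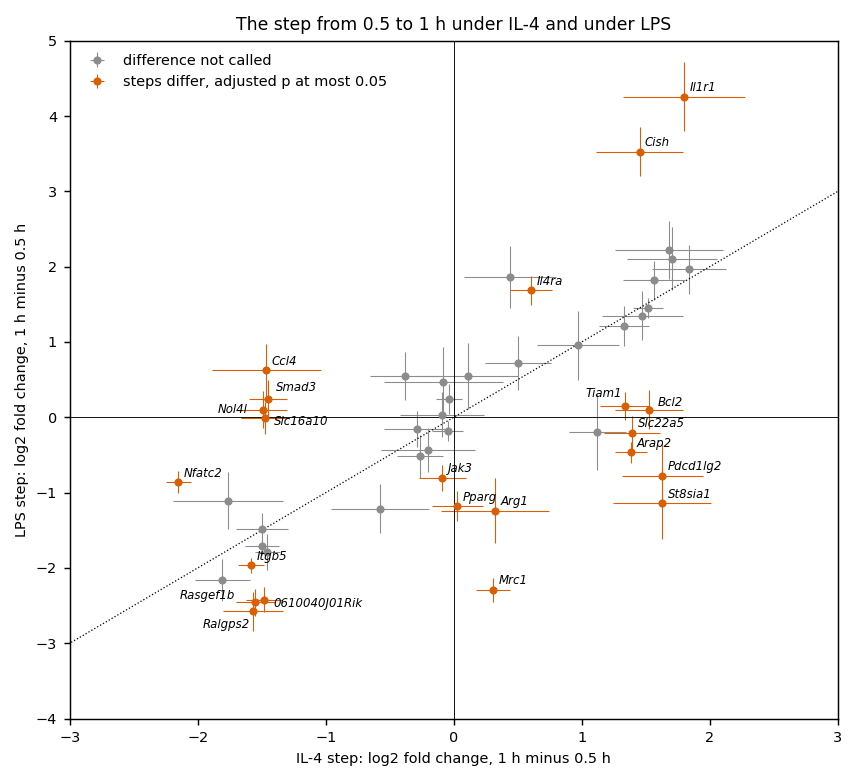
The step from 0.5 to 1 h under IL-4 against the same step under LPS, as log2 fold changes with SE bars, for 29 of the 30 largest protein-coding changes under IL-4 and the fixed genes that were tested. Orange genes differed between the steps at an adjusted p of 0.05, and the dotted line marks equal steps. Mrc1, Pdcd1lg2 and St8sia1 lay below the line, and Il1r1 and Cish above it.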

How the data were processed

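The authors reverse transcribed chromatin-associated RNA with random primers (Smart-seq2), tagmented the cDNA and sequenced single ends. Per the labels and the study's methods, reads were aligned with TopHat2 2.1.1 to mm10, reads with several hits or in blacklisted regions were removed (bedtools 2.29.2), and reads per gene were counted over RefSeq GRCm38.p6 and scaled on invariant genes in R. The submitters' processing notes also name R 3.6.2. The deposited values are whole numbers after this scaling and were handled as a score, not as raw counts, so no count model was used and the depth in reads is unknown. Coordinates are those of the table, counted from 1.

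For each gene, limma 3.58.1 (R 4.3.3) was run on log2(value + 1), with a mean-variance trend and Benjamini-Hochberg adjustment over 11843 genes (threshold 0.05). The IL-4 contrasts used the 15 untreated and IL-4 samples, and the LPS step and the difference of the steps used all 27. All tests were two-sided, and fold changes on this scale understate those of low genes. The fit was also run on simulated data. The outcome of that run is not given here, so no conclusion about the calls or their dependence on the replicates is drawn from it. The study ran an impulse model over each course, which was not repeated.

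Named genes were the 15 largest rises and 15 largest falls among protein-coding genes, and 5 and 5 among other types, that were called, reached a mean of 50 in the higher group and did not overlap, plus 29 fixed genes and up to 4 called genes of the largest change from each of 13 gene lists. Some genes that this rule names are not reported here, and the inner genes were named outside it. The members and lists were chosen with earlier results of these data known, and the lists were written from general knowledge. Pairing was checked on deviations from the group means over 6669 genes. Same-numbered samples correlated at 0.888, 0.595 and 0.695, and replicate 2 of one time and replicate 3 of the other at 0.662 and 0.692. The correlations thus set replicate 1 apart and cannot tell whether the numbers pair replicates 2 and 3. The main fit had 1 mean per group and no replicate term. The fit with the replicate number as a block is given as an alternative.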

Additional observations from a re-analysis of the deposited data

Results flagged for a closer look

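Results are listed here when the IL-4 step and the LPS step of a named gene differed by a direct test in limma (adjusted p of at most 0.05 over 11843 genes), which held for 26 of the named genes and for 39.2% of all members. Each value is the IL-4 step minus the LPS step on the log2 scale.

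Among the protein-coding genes that rose most with IL-4, the difference was 2.77 for St8sia1, 2.40 for Pdcd1lg2, 1.85 for Arap2, 1.60 for Slc22a5, 1.42 for Bcl2 and 1.18 for Tiam1, and it was -2.46 for Il1r1 and -2.07 for Cish, which rose more with LPS. St8sia1 and Pdcd1lg2 were at or under 4 normalised read counts in all 6 LPS samples of the step.

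Among the protein-coding genes that fell most with IL-4, Ccl4, Smad3, Nol4l and Slc16a10 differed by -2.09, -1.70, -1.59 and -1.47, and their LPS steps (0.63, 0.25, 0.10 and -0.01) were not called. Nfatc2 fell in both, by less with LPS, and differed by -1.29. Those that fell more with LPS had 1.01 (Ralgps2), 0.94 (0610040J01Rik), 0.91 (Rasgef1b) and 0.38 (Itgb5). Rasgef1b stood at 23203 to 29441 normalised read counts after 0.5 h of LPS, against 1268 to 1352 after 0.5 h of IL-4.

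Among other gene types, the difference was 3.63 for Gm51740, which rose with IL-4 and fell with LPS, 1.93 for Gm37053, 1.55 for Gm32702 and 0.97 for Gm46045.

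Of the genes fixed for the report and not in the rankings, Mrc1 differed by 2.60, Arg1 by 1.56, Pparg by 1.21, Jak3 by 0.71 and Il4ra by -1.08. The IL-4 step itself was not called for Mrc1, Arg1, Pparg and Jak3.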

How the results depend on the processing

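The main limit is the replicates. Replicate 1 stands apart, replicates 2 and 3 are alike, and the labels do not say whether they were separate cultures. Scaling and pseudocount left the number of calls within 1.5 times of the main one, while leaving 1 replicate number out of every group, or averaging replicates 2 and 3, did not. Values near 10 normalised read counts move by whole units.

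For the IL-4 step, against 1109 calls (611 higher, 498 lower), the fit of the 6 samples alone gave 533 (276 and 257), all 27 samples 653 (321 higher), the replicate block 2257 (1187 and 1070), sample weights 1864 (1025 and 839), and replicates 2 and 3 averaged 124 (56 and 68). Without the filter on low values 404 genes were higher. Leaving out replicates or single samples gave 97 to 2289 calls (38 to 1118 higher, 57 to 1171 lower). Leaving out 1 sample gave 643 calls without IL-4 0.5 h replicate 2, 622 without IL-4 0.5 h replicate 3, 580 without IL-4 1 h replicate 2 and 694 without IL-4 1 h replicate 3. Leaving out replicates gave 2666 to 5499 calls for the difference of the steps (1353 to 2834 higher, 1313 to 2665 lower) and 1624 to 4431 for 4 h against untreated (831 to 2048 higher, 791 to 2383 lower). The LPS step stayed within 1.5 times under its alternatives.

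Of 70 named genes that were called, none changed direction in the 20 alternatives, 20 were called in every fit that tested them and 27 with replicates 2 and 3 averaged. The replicate block changed the call of Mrc1 and Batf3 among the 87 named genes tested and of no other. Among genes not called, the sign changed in the averaged fit for Stat6 (0.028) and Ccl24 (0.095). It also changed when samples were left out, with log2 fold changes of -0.50 to 0.25 for Il2rg, -0.13 to 0.049 for Jak1, -0.22 to 0.022 for Jak3, -0.19 to 0.086 for Stat6, -0.087 to 0.38 for Klf4, -0.094 to 0.15 for Pparg, -0.075 to 0.57 for Arg1 and -0.41 to 0.17 for Ccl24. The cause was not tested.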
